A study of Mus musculus with 19 samples.

Results

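The expression of 8 genes that control itaconate, arginine and polyamine metabolism was examined in mouse lavage cells. These were Acod1, Slc7a2, Arg1, Arg2, Ass1, Odc1, Azin1 and Sat1, chosen by gene name from the 56941 genes of the deposited tables. All 8 passed the filter on low counts that left 20501 genes for testing. Bulk RNA sequencing had been done on cell pellets from bronchoalveolar lavage, the rinse of the airspaces, of 19 female mice aged 7 to 8 weeks. Per the labels the cells were primary alveolar macrophages, phagocytes that reside in the airspace, and no sort is described. There were 4 groups: ICAM-1 null mice exposed to bioparticles (n = 5), exposed wild type C57Bl/6J mice (n = 5), naive ICAM-1 null mice (n = 5) and naive wild type mice (n = 4). ICAM-1 is an adhesion molecule bound by leukocyte integrins. Exposed mice received 100 µL of pHrodo-labelled Staphylococcus aureus bioparticles, killed bacteria with an acid-sensitive dye, at 2.27 mg/mL by oropharyngeal aspiration under isoflurane, and were lavaged 1 h later with saline containing 2 mM EDTA. Not given in the sources used here were the background of the null line, littermate status, and any vehicle or anaesthetic for naive mice. A loss of ICAM-1 and any other difference between the lines cannot be told apart.

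Acod1 encodes the mitochondrial decarboxylase that makes itaconate from the TCA cycle intermediate cis-aconitate, a product for which activated macrophages are known. Arginine enters through cationic amino acid transporters such as Slc7a2. It is split to ornithine and urea by the cytosolic arginase Arg1 or the mitochondrial arginase Arg2, or oxidised to nitric oxide and citrulline by Nos2, and Ass1 begins the resynthesis of arginine from citrulline. Ornithine is the substrate of the ornithine decarboxylase Odc1, the entry to the polyamines putrescine, spermidine and spermine. The antizyme Oaz1 sends Odc1 to the proteasome, the antizyme inhibitor Azin1 binds the antizyme in its place, and Sat1 acetylates spermidine and spermine for export or breakdown.

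Total estimated counts were 57 to 66.3 M in exposed null, 42.6 to 61.0 M in exposed wild type, 59.8 to 78.8 M in naive null and 32.8 to 80.3 M in naive wild type libraries. Naive wild type libraries 1 to 3 held 32.8, 37.0 and 41.0 M and library 4 held 80.3 M. Icam1 was at 9.48 to 13.2 TPM (a relative level scaled by transcript length, with the same total in each library) in exposed null libraries, against 722 to 1079 TPM in exposed wild type libraries. In naive null libraries it was at 4.88 to 11.5 TPM, against 63.8 to 85.9 TPM in naive wild type libraries, so no library went against its genotype label. The 17 alveolar macrophage markers summed to 33910 to 38604 TPM in exposed null and 29863 to 36009 in exposed wild type libraries. In naive mice they summed to 33008 to 36133 TPM in null and 27673 to 31639 in wild type libraries, without overlap. No marker of this list was at 0 throughout a group. Epithelial markers (19 genes) summed to 969 to 1650 TPM in exposed null, 1687 to 4071 in exposed wild type, 718 to 974 in naive null and 1112 to 1443 in naive wild type libraries. Erythroid markers (7 genes) summed to 129 to 351 TPM in exposed null, 369.7 to 2399 in exposed wild type, 97.7 to 352 in naive null and 134 to 409.7 in naive wild type libraries, so both sums reached their highest values in exposed wild type mice. Neutrophil markers (14 genes) summed to 126 to 189 TPM in exposed null, 86.2 to 118 in exposed wild type, 170 to 185 in naive null and 67 to 94.1 in naive wild type libraries. Csf3r made up much of that difference. Among granule genes of the list, Elane was at 0 in every library. Ltf, in contrast, was at 3.86 to 72.5 TPM and Mmp8 at 9.45 to 26.7 TPM over all libraries. In bulk RNA, fewer cells of a type and less RNA per cell cannot be told apart.

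The sequence just upstream is shown for the gene that changed most and for one that changed little on exposure, since their start regions differ in composition. RefSeq promoter windows of build GRCm38.p6, from 250 bases before to 50 bases after the start, were available here for 4 of the 8 genes (Acod1, Ass1, Odc1 and Sat1). The Acod1 window is chr14:103046762-103047061 on the plus strand and the Odc1 window is chr12:17544623-17544922 on the plus strand, each written 5′ to 3′ with the TATAAA motif in capitals where it occurs.
Acod1: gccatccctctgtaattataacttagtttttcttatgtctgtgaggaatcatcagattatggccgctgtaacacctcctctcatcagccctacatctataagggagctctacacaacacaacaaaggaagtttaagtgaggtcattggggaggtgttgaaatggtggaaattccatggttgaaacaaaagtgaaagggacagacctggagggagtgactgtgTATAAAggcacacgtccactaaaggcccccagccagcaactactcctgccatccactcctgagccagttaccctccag
Odc1: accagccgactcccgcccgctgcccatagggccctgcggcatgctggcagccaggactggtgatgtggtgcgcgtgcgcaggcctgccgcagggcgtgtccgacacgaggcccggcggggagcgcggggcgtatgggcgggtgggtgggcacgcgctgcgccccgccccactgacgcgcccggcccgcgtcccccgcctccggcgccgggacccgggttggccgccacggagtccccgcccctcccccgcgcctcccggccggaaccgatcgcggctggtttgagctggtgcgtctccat
The Acod1 window held TATAAA 28 bases before the start and was 47% G and C. The Odc1 window held none of the motifs searched and was 78% G and C. The motifs were searched on both strands and did not overlap each other in these windows. The AP-1 motif was taken as TGANTCA, held by 7.81% of all 32851 promoter windows of the table. The E-box was taken as CACGTG, held by 7.15% of windows. The TATA motif TATAAA was held by 13.6% of windows. Ass1 held the E-box letters 36 bases before its start, and Sat1 held none of the 3 motifs. A match is a string of letters, not a measured binding site.

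On exposure, 7 of the 8 genes rose in null mice and all 8 rose in wild type mice (edgeR's quasi-likelihood test, adjusted p under 0.05). Over all genes tested, 21.4% rose in null and 20.1% rose in wild type mice. Called in either direction were 44.8% of genes in null and 40.2% in wild type mice. TPM values of exposed and naive libraries did not overlap, with the exposed ones higher, for 4 genes in null mice (Acod1, Slc7a2, Arg2 and Azin1) and for 6 in wild type mice (the same 4, Ass1 and Sat1). Of all genes tested, 8.00% did so in null and 8.20% in wild type mice. The rises spanned a wide range. Acod1 was about 33.5-fold up in null and 31.9-fold up in wild type mice. Odc1 was up 1.35-fold in null and 1.36-fold in wild type mice, the smallest rise in wild type mice. In null mice the smallest was that of Sat1 (log2 fold change 0.28).

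Small rises depended on the scale. Tests used TMM, which sets the median gene near no change (log2 fold change 0.02 in both genotypes). On log2(TPM + 1) values, where each library has the same total, the median gene moved by -0.19 in null and -0.22 in wild type mice. The share of genes called higher and lower was then 10.9% and 41.0% in null and 11% and 41.0% in wild type mice, against 21.4% and 23.4% in null and 20.1% and 20.2% in wild type mice on the TMM scale. On log2(TPM + 1), 4 of the 8 genes rose in null mice (Acod1, Slc7a2, Arg2 and Azin1), and in wild type mice Odc1 alone of the 8 did not pass.

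**Figure D1:**
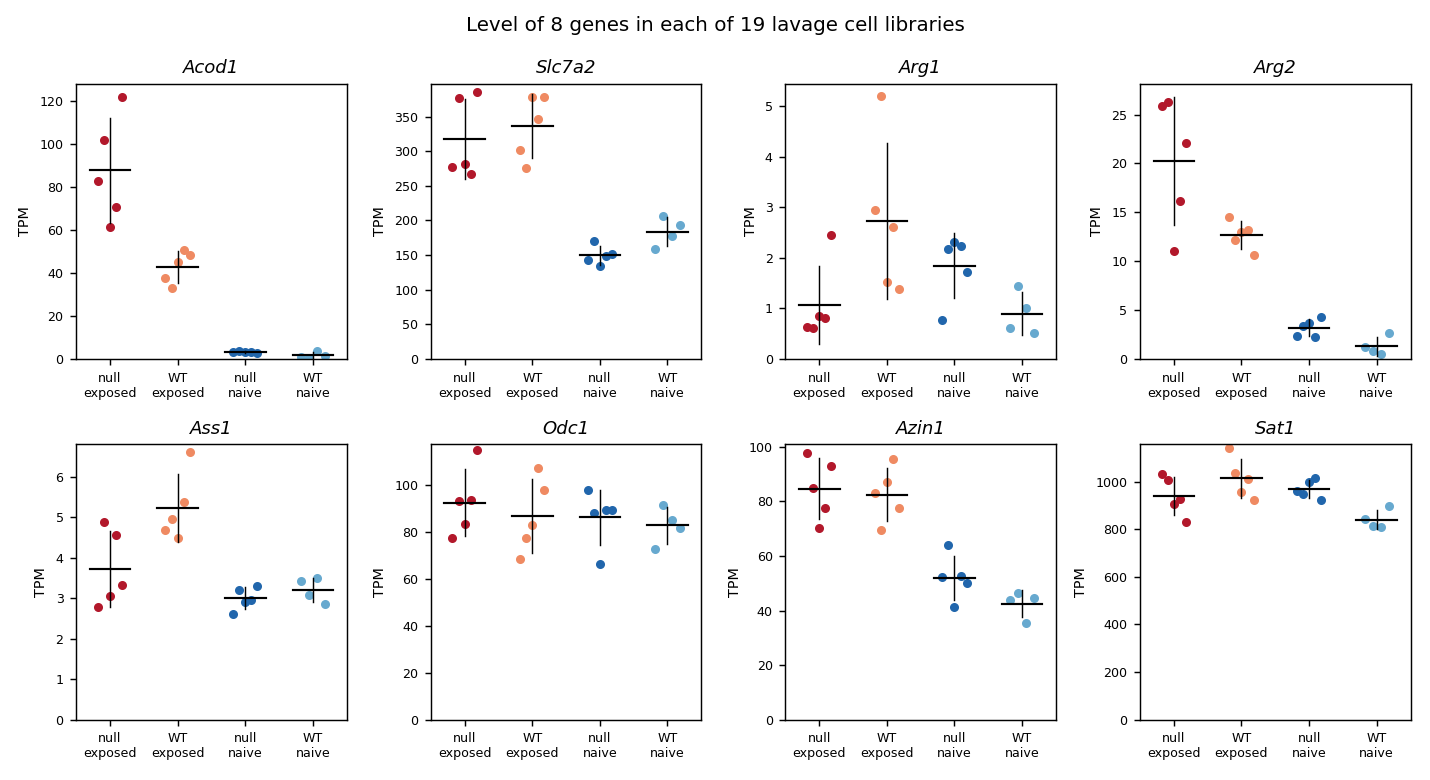
Level of each of the 8 genes in TPM (vertical axes, each from 0) in exposed null, exposed wild type (WT), naive null and naive wild type libraries. Points are libraries, horizontal bars group means and vertical bars SDs; Acod1, Slc7a2, Arg2 and Azin1 separate exposed from naive libraries in both genotypes, whereas Odc1 overlaps in both.

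Acod1 (ENSMUSG00000022126.7, GRCm39 chromosome 14, 103284413 to 103294009, plus strand) was the strongest responder of the 8. It was at 82.9, 102, 61.4, 70.7 and 122 TPM in exposed null libraries, against 3.46, 3.96, 3.42, 3.11 and 2.74 TPM in naive null libraries. In exposed wild type libraries it was at 37.8, 32.9, 45.0, 50.9 and 48.2 TPM, against 1.05, 0.509, 3.78 and 1.54 TPM in naive wild type libraries. Exposed libraries of either genotype lay far above every naive library, and every exposed null library lay above every exposed wild type library. The log2 fold change of exposed over naive was 5.07 (SE 0.32, adjusted p = 3.5e-11) in null and 5.0 (SE 0.37, adjusted p = 4.9e-10) in wild type mice. Without naive wild type library 3, whose 3.78 TPM stood above the other 3 of its group, the wild type value was 5.66.

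Among exposed mice, Acod1 was higher in null than in wild type cells, at 87.8 ± 24.4 and 42.9 ± 7.47 TPM (SD, n = 5 each). The groups did not overlap, which 3.03% of all genes showed in this direction. The log2 fold change of null over wild type was 1.06 (SE 0.27, adjusted p = 0.0146; 4.43% of all genes were called higher), and the call held without each of the 19 libraries in turn (adjusted p 0.00125 to 0.048). Of the 10 other alternatives, log2(TPM + 0.1) alone lost it, with a log2 difference of 1.00 and an adjusted p of 0.0562. In naive mice Acod1 was at 3.34 ± 0.45 TPM in null (n = 5) and 1.72 ± 1.44 TPM in wild type cells (n = 4, SD), with a log2 fold change of 0.99 (SE 0.34) that did not pass (adjusted p = 0.0887). It passed without naive wild type library 3 (1.66, adjusted p = 7.8e-04) and, with all libraries, on log2(TPM + 0.1) (1.23, adjusted p = 0.027). Both differences were about 1 on the log2 scale, and the response of null minus that of wild type mice, the interaction, was 0.07 (SE 0.43, adjusted p = 0.984). Epithelial and erythroid marker sums were lower in exposed null than in exposed wild type libraries and the neutrophil sum was higher. Of the 14 neutrophil genes, 6 had a higher mean in exposed null than in exposed wild type libraries (Csf3r at 47.4 to 63.9 against 14.4 to 18.0 TPM), 5 had a lower mean (S100a9 at 1.48 to 4.03 against 3.98 to 19.3 TPM) and 3 were at 0 in both. The part of these markers in the Acod1 difference was not tested.

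Slc7a2 (ENSMUSG00000031596.16, chromosome 8, 41315433 to 41375345, plus strand), which encodes the cationic amino acid transporter CAT2, was the second most abundant of the 8 transcripts in every group. It was at 277, 377, 282, 267 and 385 TPM in exposed null libraries, against 143, 169.9, 135, 149 and 151 TPM in naive null libraries. Exposed wild type libraries had 302, 275, 378, 346 and 378 TPM, against 159, 207, 177 and 193 TPM in naive wild type libraries. Both genotypes separated cleanly by exposure, and the genotypes overlapped within each condition. On the log2 scale exposed over naive was 1.53 (SE 0.11, adjusted p = 2.2e-10) in null and 1.36 (SE 0.12, adjusted p = 6.1e-09) in wild type mice. Null over wild type was -0.02 (SE 0.11, adjusted p = 0.942) in exposed and -0.20 (SE 0.11, adjusted p = 0.406) in naive mice. The exposed value was within its SE of 0 and changed sign without exposed wild type library 4 or 5 or exposed null library 1 or 3 (range over left-out libraries -0.14 to 0.06).

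The related transporter Slc7a1 (CAT1) was far less abundant and also rose. It was at 14.6 ± 3.1 TPM in exposed null and 9.15 ± 1.5 TPM in naive null cells, up by 1.01 on the log2 scale (SE 0.15, adjusted p = 7.2e-06). In exposed wild type cells it was at 16.3 ± 3.3 TPM, against 7.31 ± 0.58 TPM in naive wild type cells, up by 1.54 (SE 0.16, adjusted p = 1.1e-07). Per library, Slc7a2 TPM exceeded Slc7a1 TPM by a median of 19.6 times in exposed null, 20.9 in exposed wild type, 16.3 in naive null and 26.4 in naive wild type mice. Slc3a2, the heavy chain that partners light-chain amino acid transporters of the Slc7 family other than the cationic ones named here, rose by 0.99 (SE 0.07, adjusted p = 5.7e-10) in null and 1.22 (SE 0.08, adjusted p = 8.8e-11) in wild type mice on the log2 scale.

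The 2 arginases differed in both level and response. Arg2 (ENSMUSG00000021125.7, chromosome 12, 79177551 to 79203075, plus strand) was at 25.8, 26.3, 11.1, 16.2 and 22.1 TPM in exposed null libraries, against 2.35, 3.42, 3.72, 2.27 and 4.25 TPM in naive null libraries. Exposed wild type libraries had 14.6, 12.2, 12.9, 13.2 and 10.6 TPM, against 1.25, 0.774, 0.476 and 2.63 TPM in naive wild type libraries. Every exposed library stood above every naive library. Exposed over naive was, as a log2 fold change, 3.02 (SE 0.31, adjusted p = 7.6e-08) in null and 3.59 (SE 0.37, adjusted p = 7.9e-08) in wild type mice. The wild type value was 4.30 without naive wild type library 4, the deepest and the highest of its group, and 2.63 with that library alone standing for naive wild type mice.

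Arg2 was the one gene of the 8 that differed by genotype in naive mice, where 6.86% of all genes tested were called in either direction and 4.31% were called higher in null mice. It averaged 3.20 ± 0.87 TPM in naive null (n = 5) and 1.28 ± 0.95 TPM in naive wild type cells (n = 4, SD), and the groups overlapped through wild type library 4. The log2 fold change of null over wild type was 1.28 (SE 0.35, adjusted p = 0.0248). The call was lost without naive wild type library 1, 2 or 3 or naive null library 3 or 5 (log2 fold changes 1.03 to 1.26, adjusted p 0.0564 to 0.0945), and also with only the 2 groups fitted (1.32). With wild type library 4 alone as naive wild type, the value was 0.34. Without that library it was 2.00. In exposed mice Arg2 was at 20.3 ± 6.55 TPM in null and 12.7 ± 1.44 TPM in wild type cells, with a log2 fold change of 0.71 (SE 0.29) that did not pass (adjusted p = 0.157). The 3′ end of Arg2 shares 285 bases with the 3′ end of Vti1b on the opposite strand, and whether the counting used strand is not stated. Vti1b was at 84.8 to 133 TPM over all libraries, and it passed in none of the 5 comparisons (log2 fold changes -0.06 to 0.06).

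Arg1 (ENSMUSG00000019987.10, chromosome 10, 24791119 to 24803382, minus strand) was the least abundant of the 8, with 16 to 199 estimated counts per library. An estimated count need not be 1 fragment. It was at 0.642, 0.617, 0.855, 0.809 and 2.45 TPM in exposed null libraries, against 0.780, 2.18, 2.31, 2.23 and 1.71 TPM in naive null libraries. Wild type libraries had 2.95, 5.20, 1.52, 2.60 and 1.38 TPM when exposed, against 0.609, 1.45, 1.00 and 0.515 TPM when naive. Exposed null libraries 1 to 4 were low and library 5 stood apart, and exposed and naive libraries overlapped in both genotypes. In wild type mice Arg1 rose by 1.92 on the log2 scale (SE 0.45, adjusted p = 0.00158). In null mice exposed over naive was -0.31 (SE 0.40) and did not pass (adjusted p = 0.565). The interaction was -2.23 (SE 0.60, unadjusted p = 0.00121, adjusted p = 0.138), so a difference between the responses was not shown by edgeR. DESeq2 called it (-2.23, adjusted p = 0.0247), as did edgeR without exposed null library 5 (-2.67, adjusted p = 0.0393).

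In exposed mice Arg1 was lower in null than in wild type cells, at 1.07 ± 0.77 and 2.73 ± 1.54 TPM (SD, n = 5 each), and 4.04% of all genes tested were called lower in that comparison. Null over wild type was -1.35 on the log2 scale (SE 0.40, adjusted p = 0.0397). The call was lost without naive wild type library 3, without exposed wild type library 1, 2 or 4, and without exposed null library 1, 2, 3 or 4 (-1.37 to -1.05, adjusted p 0.0501 to 0.148). It was also lost without a filter on low counts, on both log2 TPM scales and with only the 2 groups fitted. Thinned counts and a replicate block (a term for the library number) lost it as well (-1.41 to -0.82 over these fits). With library 4 alone as naive wild type the value was -1.34. The groups overlapped through exposed null library 5. In naive mice the order was the other way, at 1.84 ± 0.64 TPM in null (n = 5) and 0.894 ± 0.43 TPM in wild type cells (n = 4, SD), and the log2 fold change of 0.88 (SE 0.44) did not pass (adjusted p = 0.314). Epithelial, erythroid, T and NK cell and dendritic cell marker sums were also lower in exposed null than in exposed wild type libraries. The 11 T and NK cell genes summed to 177 to 221 against 230 to 298 TPM, with 8 lower and 3 higher by mean in null cells. The 8 dendritic cell genes summed to 42.3 to 45.3 against 48.6 to 61.5 TPM. Of these, 5 had a higher mean in null cells and 3 a lower one. The 12 monocyte and interstitial macrophage genes overlapped in their sums, at 39.3 to 53.3 against 47.8 to 70.8 TPM, with 10 lower and 2 higher by mean. Within the epithelial list 17 genes had a lower and 2 a higher mean in null cells. Epcam was among the 2 higher, at 92.2 to 125 TPM in exposed null against 46.8 to 62.6 TPM in exposed wild type libraries. The part of these markers in the Arg1 difference was not tested.

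Within a library the ratio of Arg2 to Arg1 TPM put the arginases on 1 scale. Its median was 20.0 (range 9.03 to 42.6) in exposed null, 5.07 (2.35 to 8.51) in exposed wild type, 1.61 (1.01 to 3.01) in naive null and 1.30 (0.475 to 5.11) in naive wild type libraries. Every exposed null library had a higher ratio than any other library, by a narrow margin (9.03 against 8.51). The denominator Arg1 had only 27 to 97 estimated counts in exposed null libraries, and its genotype call was lost in many refits. How often other gene pairs separate in this way was not taken.

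Ass1 (ENSMUSG00000076441.10, chromosome 2, 31360219 to 31410684, plus strand), the argininosuccinate synthase, was low in all groups. It was at 2.80, 4.90, 3.05, 4.56 and 3.34 TPM in exposed null libraries, against 2.61, 3.22, 2.92, 2.97 and 3.30 TPM in naive null libraries. Exposed wild type libraries had 4.68, 4.97, 4.49, 5.38 and 6.61 TPM, against 3.42, 3.09, 3.5 and 2.85 TPM in naive wild type libraries. Exposed wild type libraries all lay above naive ones, whereas in null mice exposed libraries 1 and 3 lay within the naive range and library 5 just above it. On the log2 scale Ass1 rose by 0.66 (SE 0.19, adjusted p = 0.00686) in null and 1.04 (SE 0.20, adjusted p = 2.9e-04) in wild type mice. On log2(TPM + 1) the null value was 0.22 and did not pass (adjusted p = 0.193), and the wild type value was 0.56 (adjusted p = 0.00305). Null over wild type was -0.42 (SE 0.19, adjusted p = 0.207) in exposed and -0.03 (SE 0.20, adjusted p = 0.976) in naive mice.

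Asl, which completes the resynthesis of arginine after Ass1, did not pass in either genotype, with log2 fold changes of 0.08 in null and 0.01 in wild type mice. The nitric oxide synthase Nos2 was at 0 to 0.557 TPM in exposed null, 0 to 0.434 in exposed wild type, 0.0649 to 0.209 in naive null and 0 to 0.119 in naive wild type libraries, and no comparison passed.

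**Figure D2:**
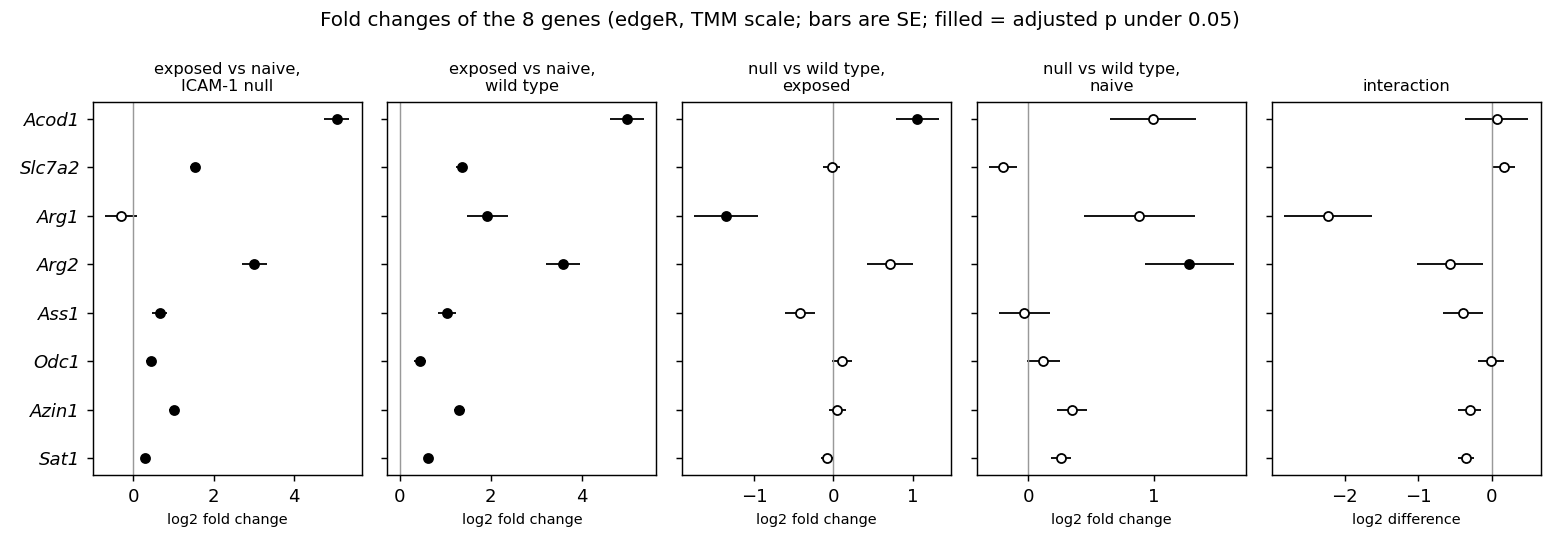
Log2 fold changes of the 8 genes in the 5 comparisons, with horizontal bars for SE and filled points for an adjusted p under 0.05; the horizontal axes differ between panels. On the TMM scale 7 genes passed on exposure in null and 8 in wild type mice, and no interaction passed. Between the lines Acod1 and Arg1 passed in exposed and Arg2 in naive mice, and the Arg1 and Arg2 calls were lost in some refits.

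Odc1 (ENSMUSG00000011179.9, chromosome 12, 17594795 to 17601506, plus strand) had similar TPM values in all 4 groups. It was at 77.5, 93.3, 83.4, 93.5 and 115 TPM in exposed null libraries, against 97.9, 88.2, 66.3, 89.5 and 89.3 TPM in naive null libraries. In exposed wild type libraries it was at 68.6, 77.7, 82.8, 107 and 98.1 TPM, against 72.7, 91.5, 85.3 and 82.0 TPM in naive wild type libraries. The TPM ranges of all 4 groups overlapped. On the TMM scale the log2 fold change of exposed over naive was 0.44 (SE 0.12, adjusted p = 0.00648) in null and 0.45 (SE 0.13, adjusted p = 0.00999) in wild type mice. On log2(TPM + 1) it was 0.10 (adjusted p = 0.533) in null and 0.05 (adjusted p = 0.753) in wild type mice, so the call rested on the scale. Null over wild type was 0.11 (SE 0.12, adjusted p = 0.702) in exposed and 0.12 (SE 0.13, adjusted p = 0.735) in naive mice.

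Azin1 (ENSMUSG00000037458.16, chromosome 15, 38487671 to 38519510, minus strand) encodes the antizyme inhibitor and had larger log2 fold changes on exposure than Odc1. It was at 97.7, 85.0, 70.3, 77.5 and 92.8 TPM in exposed null libraries, against 52.3, 63.8, 41.3, 52.8 and 50.02 TPM in naive null libraries. Exposed wild type libraries had 83.2, 69.4, 87.0, 95.4 and 77.4 TPM, against 44.0, 46.3, 35.3 and 44.5 TPM in naive wild type libraries. Exposed and naive libraries did not overlap in either genotype. Exposure raised it by 1.01 (SE 0.11, adjusted p = 1.3e-07) in null and 1.31 (SE 0.12, adjusted p = 1.4e-08) in wild type mice on the log2 scale, and both passed on log2(TPM + 1). Null over wild type was 0.05 (SE 0.11, adjusted p = 0.866) in exposed mice, with a sign that changed without exposed wild type library 2 (-0.01). In naive mice it was 0.35 (SE 0.12, adjusted p = 0.0808), and this passed with DESeq2 (0.35, adjusted p = 0.0497) and with edgeR without naive null library 3 (0.42, adjusted p = 0.0291).

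The antizyme Oaz1 was among the most abundant transcripts of the pathway and differed little by TPM, at 1119 ± 84.9 TPM in exposed null and 1071 ± 51.4 TPM in naive null cells, and at 1156 ± 40.5 TPM in exposed wild type and 1301 ± 159 TPM in naive wild type cells. Its log2 fold change was 0.36 (SE 0.06) in null and 0.18 (SE 0.06) in wild type mice on the TMM scale (both passed), against 0.06 in null and -0.16 in wild type mice on log2(TPM + 1). The ratio of Azin1 to Odc1 TPM had a median of 0.843 (0.807 to 1.26) in exposed null, 0.894 (0.789 to 1.21) in exposed wild type, 0.590 (0.535 to 0.724) in naive null and 0.524 (0.414 to 0.606) in naive wild type libraries. The ratio of Oaz1 to Azin1 TPM ran the other way, with medians of 12.6 in exposed null, 13.7 in exposed wild type, 21.5 in naive null and 30.1 in naive wild type libraries. For Azin1 over Odc1 no exposed library overlapped a naive one. For Oaz1 over Azin1 the exposed libraries reached 17.4 and the lowest naive library, a null one, was at 16.1.

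**Figure D3:**
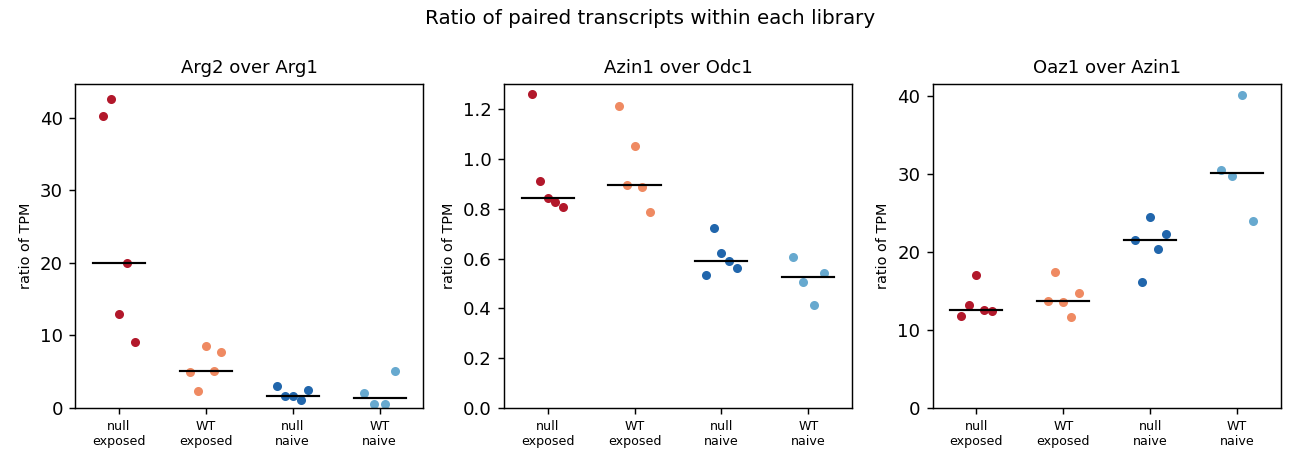
Ratios of TPM between transcripts of the same library (vertical axes, each from 0) for Arg2 over Arg1, Azin1 over Odc1 and Oaz1 over Azin1, with a point per library and a line at the group median. Arg2 over Arg1 is highest in exposed null libraries (median 20.0), where Arg1 had only 27 to 97 estimated counts. Azin1 over Odc1 separates exposed from naive libraries in both genotypes.

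Sat1 (ENSMUSG00000025283.16, chromosome X, 153996128 to 153999445, minus strand) was the most abundant of the 8 in every library group. It was at 1031, 1004, 905, 928 and 832 TPM in exposed null libraries, against 961, 948, 999.8, 1014 and 922 TPM in naive null libraries. In exposed wild type libraries it was at 1139, 1037, 958, 1012 and 924 TPM, against 841, 814, 809 and 899 TPM in naive wild type libraries. Exposed and naive libraries overlapped in null mice and did not overlap in wild type mice. The log2 fold change of exposed over naive was 0.63 (SE 0.08, adjusted p = 1.9e-06) in wild type mice and held on log2(TPM + 1) (0.27, adjusted p = 0.00376). In null mice it was 0.28 (SE 0.08, adjusted p = 0.00373) on the TMM scale and -0.05 (adjusted p = 0.601) on log2(TPM + 1), so its direction depended on the scale. The interaction was -0.35 (SE 0.11, unadjusted p = 0.00468, adjusted p = 0.232).

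Sat1 in naive mice was higher in every null than in every wild type library, a pattern that 4.48% of all genes tested showed. The log2 fold change of 0.26 (SE 0.08) missed the threshold (adjusted p = 0.0501). It passed in 8 of the 19 fits that left out a library (0.26 to 0.31, adjusted p 0.0208 to 0.0493). It also passed with DESeq2, with only the 2 groups fitted and with the replicate block (0.29, adjusted p = 0.0295). The 8 were those without naive wild type library 4, naive null library 5, exposed wild type library 1 or 3, or exposed null library 1, 2, 3 or 5. In exposed mice null over wild type was -0.08 (SE 0.08, adjusted p = 0.619).

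Set against the background, 2 of the 8 genes differed by genotype in exposed mice (8.48% of all genes) and 1 in naive mice (6.86%). In the interaction none of the 8 passed with edgeR, which called 0.332% of all genes. DESeq2 called 1 of the 8 (Arg1) and 266 of the 18890 genes it tested. With edgeR 2 of the 8 had an unadjusted p under 0.05 (Arg1 and Sat1), and the share of all genes at that threshold was not taken. The comparisons share libraries, so the calls are not independent of each other.

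By mean TPM the order of the 8 transcripts began with Sat1 and then Slc7a2 in all 4 groups, with no overlap between them or with the next gene. In exposed null mice Odc1, Acod1 and Azin1 followed and neighbours among them overlapped, and then came Arg2, Ass1 and Arg1 without overlap. In exposed wild type mice Odc1 and Azin1 overlapped, Acod1 and Arg2 came next without overlap, and Ass1 and Arg1 overlapped. In naive null mice Odc1 and Azin1 stood apart, Acod1, Arg2 and Ass1 overlapped as neighbours and Arg1 was last. In naive wild type mice Odc1 and Azin1 again stood apart, and Ass1, Acod1, Arg2 and Arg1 overlapped as neighbours. Together the 8 genes summed to medians of 1574 TPM in exposed null, 1570.3 in exposed wild type, 1263 in naive null and 1144 in naive wild type libraries, and Sat1 made up 52.8% to 79.7% of the sum across libraries.

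The wider pathways were described with 3 gene lists that include these 8 genes. Of 24 genes for itaconate and the TCA cycle, 5 rose, 3 fell and 16 did not pass in null mice, and 4 rose, 1 fell and 19 did not pass in wild type mice. The list's median log2 fold change was 0.08 in both genotypes, against 0.02 over all genes, and 44.8% of all genes were called in null and 40.2% in wild type mice. Apart from Acod1, changes were small. Isocitrate dehydrogenase Idh2 fell by 0.22 on the log2 TMM scale in both genotypes, at 91.5 ± 4.7 TPM in exposed null and 140 ± 9.9 TPM in naive null cells and at 88.5 ± 6.6 TPM in exposed wild type and 137 ± 5.3 TPM in naive wild type cells. Idh1 (-0.27) and the succinate dehydrogenase subunit Sdhd (-0.25) fell in null mice. Malate dehydrogenase Mdh2 (0.24, null), the oxoglutarate dehydrogenase Ogdh (0.23 in null and 0.34 in wild type mice) and citrate synthase Cs (0.18 in null and 0.19 in wild type mice) were called higher on the TMM scale and had log2(TPM + 1) values of -0.19 to -0.04. On log2(TPM + 1) 1 gene of the list rose and 16 fell in null mice and 1 rose and 17 fell in wild type mice, beside the median of all genes given above. On the TMM scale 5 genes were called in null mice without exposed null library 5, and 3 in wild type mice without naive wild type library 3.

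Of 29 genes of arginine handling 26 were tested, since Otc, Agmat and Pycr3 had no tested entry. In null mice 7 rose, 3 fell and 16 did not pass, with a median of -0.02. In wild type mice 9 rose, 5 fell and 12 did not pass, with a median of 0.22. Over all genes, 21.4% rose and 23.4% fell in null and 20.1% rose and 20.2% fell in wild type mice, with a median of 0.02 in both. Without Slc7a2, Arg1, Arg2 and Ass1, 4 rose and 3 fell of 22 tested in null mice (median -0.07), and 5 rose and 5 fell in wild type mice (median -0.05). Besides the transporters and the 4 genes described, the dimethylarginine hydrolase family gene Ddah2 rose by 0.94 in null and 0.92 in wild type mice. Aldh18a1, which makes the proline and ornithine precursor from glutamate, fell by 0.62 in null mice, to 13 ± 1.3 TPM in exposed against 26.1 ± 4.1 TPM in naive cells. It fell by 0.48 in wild type mice, to 12.4 ± 1.7 TPM in exposed against 22.5 ± 3.46 TPM in naive cells. The proline dehydrogenase Prodh fell by 0.68 in wild type mice and was at -0.12 in null mice, where it did not pass, and its interaction did not pass (adjusted p = 0.633). These are log2 fold changes.

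Of 28 genes of polyamine metabolism 27 were tested (Slc12a8 was not). In null mice 13 rose, 8 fell and 6 did not pass, with a median of 0.27. In wild type mice 13 rose, 6 fell and 8 did not pass, with a median of 0.24. The shares over all genes were 21.4% risen and 23.4% fallen in null and 20.1% and 20.2% in wild type mice, with a median of 0.02. Without Odc1, Azin1 and Sat1, 10 rose and 8 fell of 24 tested in null mice (median 0.20), and 10 rose and 6 fell in wild type mice (median 0.06). Spermine oxidase Smox, which turns spermine back to spermidine, rose most. It was at 46.5 ± 14 TPM in exposed null and 11.7 ± 2.2 TPM in naive null cells (log2 fold change 2.20, SE 0.16, adjusted p = 4.7e-10), and at 41.0 ± 4.4 TPM in exposed wild type and 16.5 ± 2.1 TPM in naive wild type cells (1.57, SE 0.17, adjusted p = 2.4e-07). Dhps, which uses spermidine in the first step towards hypusine on the translation factor eIF5A, rose by 1.32 in null and 1.12 in wild type mice. Mat2a, which makes the S-adenosylmethionine from which the aminopropyl donor comes, rose by 1.30 in null and 1.13 in wild type mice. Sat2, a relative of Sat1, fell by 1.27 in null and 1.12 in wild type mice. The aminopropyl transferases had smaller positive log2 fold changes, at 0.78 in null and 0.61 in wild type mice for spermidine synthase Srm and at 0.60 in null and 0.62 in wild type mice for spermine synthase Sms. S-adenosylmethionine decarboxylase Amd1 had 0.23 in null and 0.24 in wild type mice on the TMM scale and -0.13 in null and -0.14 in wild type mice on log2(TPM + 1), and it has a near-identical copy, Amd2, with which it may share reads.

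**Figure D4:**
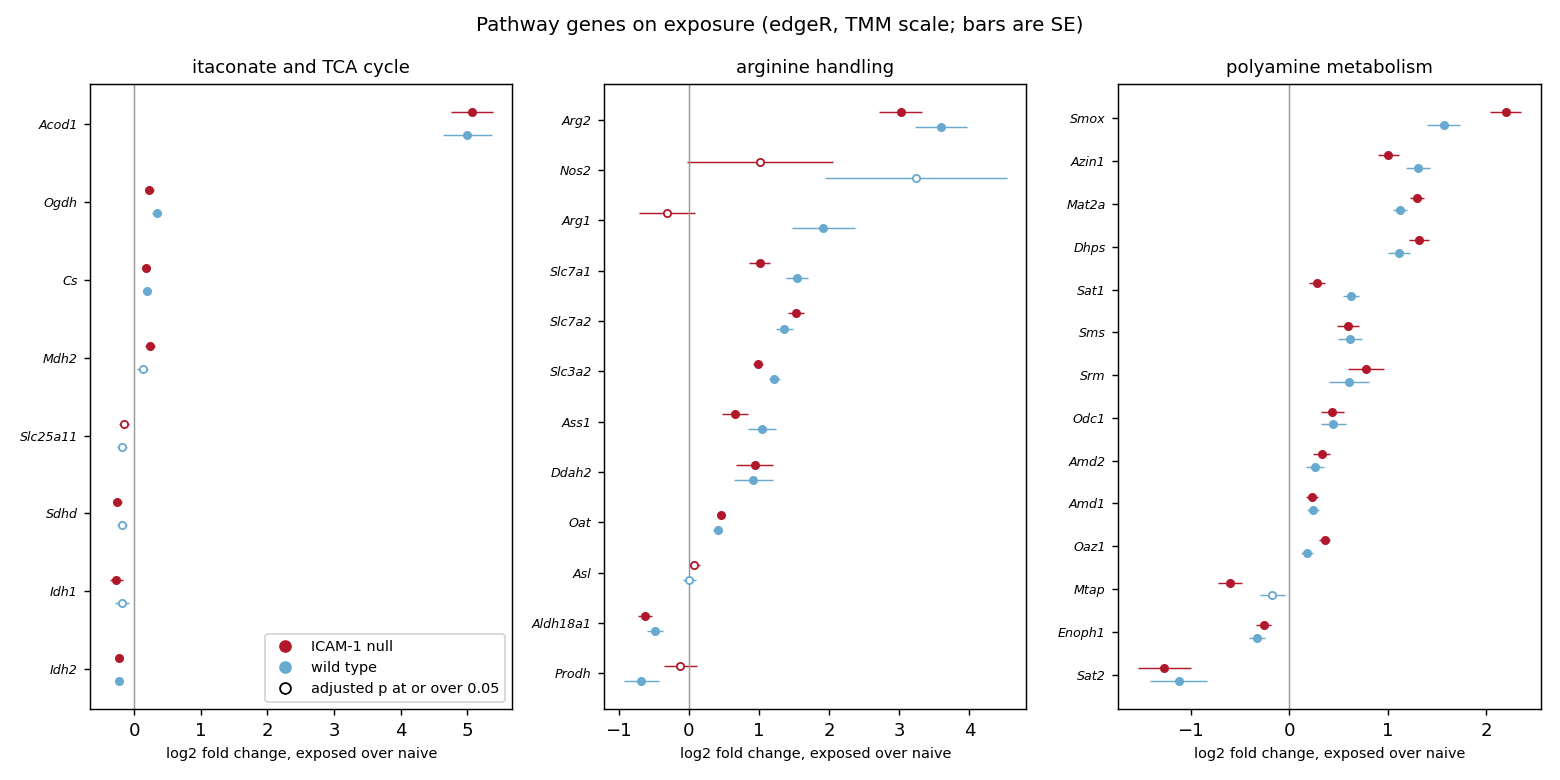
Log2 fold change of exposed over naive (horizontal axes, which differ between panels) for the genes of the 3 lists that the text names, with SE bars, in null (red) and wild type (blue) mice; open points did not pass. Acod1 stands alone among those of its list, while the arginine and polyamine lists hold several risers and several fallers, from Arg2 and Smox at the top to Prodh and Sat2 at the bottom.

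Between genotypes, 2 genes were higher and 1 was lower in null than in wild type cells in each of the 3 lists in exposed mice, where 8.48% of all genes were called. DESeq2 called 6 in each list, and over all genes it called 5.67% higher and 5.12% lower. The 6 were 5 higher and 1 lower for the TCA cycle, 3 and 3 for arginine and 4 and 2 for polyamines. With edgeR the number called in the TCA cycle list was 5 without exposed null library 1. In the arginine list it was 1 without exposed wild type library 2 or exposed null library 1 or 4 and 6 without exposed wild type library 3. In the polyamine list it was 5 without exposed wild type library 3. In naive mice 0 of 24, 3 of 26 and 2 of 27 genes passed (TCA cycle, arginine and polyamine; 6.86% of all genes were called), with 1 called in the TCA cycle list without naive wild type library 3, naive null library 1 or exposed null library 3. The polyamine list then had 1 without naive wild type library 1 and 4 without naive wild type library 4. DESeq2 called 1, 3 and 4 genes of the lists in naive mice, where it called 5.43% of all genes higher and 3.22% lower. With edgeR, 5 TCA cycle, 7 arginine and 9 polyamine genes had an unadjusted p under 0.05 in naive mice. In the interaction no gene of the 3 lists passed with edgeR. An unadjusted p under 0.05 was found there for 3, 5 and 4 genes (TCA cycle, arginine and polyamine). The share of all genes at that unadjusted threshold was not taken for naive mice or the interaction, so the unadjusted counts of both have no background beside them. DESeq2 called 1 gene of the lists in the interaction, Arg1, among 266 over all genes.

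Mtap, which salvages the methylthioadenosine released by polyamine synthesis, had the largest genotype differences among the listed polyamine genes that passed. It was lower in null than in wild type cells, at 6.11 ± 0.90 and 12 ± 1.6 TPM in exposed mice (log2 fold change -0.92, SE 0.12, adjusted p = 2.2e-05) and at 12.1 ± 1.7 and 18.2 ± 2.9 TPM in naive mice (-0.50, SE 0.13, adjusted p = 0.0181), without overlap in either. The ornithine aminotransferase Oat was higher in null than in wild type cells, by 0.30 (SE 0.06, adjusted p = 0.00137) in exposed and 0.26 (SE 0.06, adjusted p = 0.0105) in naive mice. Amd1 was also higher in null cells, by 0.28 in exposed and 0.29 in naive mice. Slc3a2 was higher by 0.24 in exposed and 0.47 in naive null mice. In exposed mice the transporter gene Slc25a11 (0.23) and the methionine salvage enzyme Enoph1 (0.27) were higher in null cells and Sdhd (-0.28) was lower.

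The genes whose pattern over the 19 libraries was most like each of the 8 were found by the root-mean-square difference of centred log2(TPM + 1) values. Nearest to Acod1 were Tnfaip3 (0.41) and Cxcl10 (0.41), against a spread of Acod1 itself of 2.17. Arg2, with a spread of 1.32, was nearest to Fnbp1l (0.35) and Cpeb4 (0.40). Slc7a2 (spread 0.53) was nearest to Dtx4 (0.17) and Yrdc (0.17), and Azin1 (spread 0.45) to Hif1a (0.11) and B4galt5 (0.14). For the 4 others the nearest genes were not much closer than the gene's own spread. These were Stard4 (0.19) and Lrrfip2 (0.21) for Ass1 (spread 0.30), Larp1 (0.13) for Odc1 (spread 0.20), and Donson (0.08) and Ero1b (0.10) for Sat1 (spread 0.13). Arg1, with a spread of 0.54, had no close match, with H3f3a-ps1 at 0.41 and Gzmc at 0.46.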

How the data were processed

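RNA sequencing of 19 libraries was analysed from tables as deposited. Per the labels' protocols, poly(A)-selected RNA was read in pairs of 150 bases, and 20 M paired-end reads per library were planned. STAR, StringTie version 2 and build GRCm39 are named in the submitters' processing notes, with strand and counting options not given in the sources used here. The deposited estimated counts per gene were whole numbers, not scaled for depth by the authors. Deposited TPM columns summed to 999978 to 1000000 per library. The 310 entries without a gene symbol were kept by ID.

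The test was the two-sided quasi-likelihood F test of edgeR 4.0.16 (R 4.3.3), with 4 group means in a single model of all 19 libraries, TMM scaling and filterByExpr (minimum count 10, total 15). The Benjamini-Hochberg adjustment ran over 20501 genes, called under an adjusted p of 0.05, and SE is that of the log2 fold change. Alternatives used DESeq2 1.42.0, upper-quartile scaling, other filters, thinned counts, limma 3.58.1 on log2 TPM with a pseudocount of 1 or 0.1, only the groups compared, a replicate block and each library left out. The fit was tested on simulated counts. The 8 genes, the 3 pathway lists and 9 marker lists were chosen with earlier results of these data known. Other genes named were, per list and comparison, the 4 called genes with the largest change and a mean of at least 1 TPM, direct partners of the 8, and for each of the 8 the 2 most similar genes of at least 5 TPM. A few genes that this rule names are not reported here. No libraries were identical, and within groups any pair of libraries differed by a chi-square per gene of at least 3.47 on counts divided by 4. None was therefore dropped as a copy, and each was taken as 1 replicate. This check cannot show that the libraries are independent. The labels name no litter, day or batch, so any such effect cannot be told apart from the group differences or the spread. The p-values rest on the spread among these libraries alone.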

Additional observations from a re-analysis of the deposited data

Results flagged for a closer look

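Arg1 in exposed null library 5 stood far from the other 4 libraries of its group, at 2.45 TPM against 0.617 to 0.855 TPM. Its gap to the nearest library was 0.87 of the group's whole range. Of 32 groups of values examined (8 genes in 4 groups) this was the only such case. By chance about 1 in 20 groups is flagged, so 1 flag among 32 is no more than chance gives. Without this library, Arg1 passed in the interaction test.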

How the results depend on the processing

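Of 1142 refits of the 40 log2 fold changes of the 8 genes, 1066 kept direction and call, 30 lost a call, 17 gained one and 29 changed sign, and 23 of the 40 kept both throughout. On exposure, 4 of the 8 genes were called in null mice with limma on log2(TPM + 1) or log2(TPM + 0.1), and Sat1 was at -0.05 on both. Reducing naive wild type to library 4 (chosen after seeing the data) left 4253 genes called on exposure in wild type mice, 321 for genotype in naive mice and 10 in the interaction. For genotype in exposed mice 1 of the 8 genes was called without a filter, with the 10 CPM filter, on log2(TPM + 1), with only the 2 groups, with thinned counts and with library 4 alone, 0 on log2(TPM + 0.1), and 1 to 2 with a library left out. In naive mice 3 were called by DESeq2, 2 on log2(TPM + 0.1), 0 with library 4 alone and 0 to 2 with a library left out. The interaction called 266 genes by DESeq2, 38 without a filter, 110 on log2(TPM + 1) and 34 to 82 with a library left out, and of the 8 genes 1 by DESeq2 and 0 to 1 with a library left out. Signs changed for these values, none of them called as reported except that of Sat1 above. Ass1 in naive mice was 0.12 with library 4 alone and -0.07 to 0.02 with a library left out. The Acod1 interaction was -0.23 on log2(TPM + 0.1), -0.09 with library 4 alone and -0.59 to 0.36 with a library left out. The Arg2 interaction was 0.38 with library 4 alone, against -0.57 as reported. The Odc1 interaction was 0.02 with upper-quartile scaling, 0.01 with the 10 CPM filter or thinned counts, 0.05 on both log2 TPM scales and -0.11 to 0.07 with a library left out. In exposed mice null over wild type was -0.14 to 0.06 for Slc7a2 and -0.01 to 0.11 for Azin1 with a library left out. Except where shown by the construction, the cause was not tested.

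Deviations of same-numbered libraries had correlations of -0.0452 to 0.073, and in 10 of 36 cases a library correlated best with its own number. These were 6 of 10 for genotype in exposed mice and 3 of 8 for genotype in naive mice. For exposure they were 1 of 10 in null and 0 of 8 in wild type mice. The numbers were not taken as pairs in the main fit. With the replicate block 1 of the 8 genes was called for genotype in exposed mice (Arg1 was at -1.41, adjusted p = 0.0506) and 2 in naive mice (Sat1 was at 0.29, adjusted p = 0.0295), and the Odc1 interaction was 0.05. It called 9037 genes on exposure in null and 7808 in wild type mice, 1649 for genotype in exposed and 1365 in naive mice, and 52 in the interaction.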
